A study of Homo sapiens with 13 samples.

Results

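Chromosome 19 carried 1270 of the 54855 FOXA1 peaks of the endometrial cancer cell line Ishikawa and 538 of the 13252 peaks of the endometrial cancer cell line Hec1A. The peaks described here were chosen by their position on this chromosome in both deposited lists, 1808 of 68107 in all. Each entered its list by measured values, a tag number and folds over the local region and, in Ishikawa, over input, so that being strong is no finding. FOXA1 had been mapped by chromatin immunoprecipitation and sequencing (ChIP-seq) with 1 rabbit antibody in every ChIP library. The Ishikawa list came from 6 ChIP libraries pooled against 2 pooled inputs, and the Hec1A list from 3 pooled ChIP libraries, with no input named in the recorded command although 2 Hec1A input libraries are labelled. Each line is 1 cell line with 1 pooled list, so no value below has a replicate error and no test between the lines was possible. Intervals are 95% Wilson intervals, which cover counting error only and treat peaks as independent, although neighbouring peaks share background and chromatin.

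FOXA1 is a forkhead transcription factor that can bind DNA in closed chromatin and open it for other factors, among them the oestrogen receptor in breast and endometrial cells. Chromosome 19 is the most gene-dense human chromosome. It also holds large tandem clusters of C2H2 zinc finger genes, many of which encode KRAB proteins that silence transposable elements, and these clusters are known for heterochromatin marks over the genes themselves. In the RefSeq gene table of GRCh38, 250 of 517 protein-coding genes with a ZNF symbol lay on chromosome 19 (48.4%), where they made up 17.2% of 1451 protein-coding genes. The longest unbroken run of neighbouring ZNF genes, from ZNF737 to ZNF681, held 27 genes. Peak positions below are those of hg19. Genes at single peaks and DNA sequences are not given, since no hg19 annotation or genome was used here.

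The peaks of both lines were dense on this chromosome, in Ishikawa about as dense as on several others. Ishikawa had 21.6 peaks per Mb and Hec1A had 9.15 peaks per Mb, counted over the 58.8 Mb between the outermost peaks. Among the autosomes and chromosome X, chromosome 19 was second of 23 in Ishikawa, after chromosome 12 with 22.0 peaks per Mb, and first in Hec1A, before chromosome 17 with 8.82. The Ishikawa rank was close, with 21.5 on chromosome 6, 21.3 on chromosome 17 and 21.0 on chromosomes 4 and 14. It held 2.32% of the Ishikawa list (2.19% to 2.44%) and 4.06% of the Hec1A list (3.74% to 4.41%). Ishikawa peaks outnumbered Hec1A peaks by a ratio of 2.36 on chromosome 19 and by 4.21 over the sum of the other chromosomes. The other chromosomes differed among themselves. Chromosome 17 had 1723 Ishikawa and 714 Hec1A peaks, a balance close to that of chromosome 19, and chromosome 16 had 1155 and 402. Chromosome 4 lay on the other side of 4.21, with 4017 and 689. A low ratio was therefore not particular to chromosome 19. The lists passed unlike filters, so these ratios do not measure binding alone.

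The deposited signal of a peak is its tag count per 10000000 tags of the pool. Ishikawa peaks on chromosome 19 had a median signal of 10.2 (quartiles 6.63 and 17.5, highest 486.9), and those on other chromosomes had 9.66. Hec1A peaks had a median signal of 4.82 on chromosome 19 (quartiles 3.43 and 7.25, highest 450.7) and 4.96 elsewhere. The fold of a peak over its surrounding 10000 bp, the local fold, set Ishikawa peaks of this chromosome further apart from the rest than signal did. Its median was 8.01 on chromosome 19 and 6.91 on other chromosomes, the highest of 23 chromosomes. With only the 13252 highest-scoring Ishikawa peaks it ranked 2, with 19.4 on chromosome 19 and 25.8 on the highest. In Hec1A the medians were 5.69 and 5.71. A local fold of at least 8 was reached by 636 Ishikawa peaks of chromosome 19 (50.1%), beside 40.1% of the whole Ishikawa list, and by 128 Hec1A peaks (23.8%), beside 26% of the whole Hec1A list.

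The focus ratio is the fraction of a peak's tags that lie tightly around its centre. Peaks of chromosome 19 were the least focused of 23 chromosomes in both lists. The median was 0.817 in Ishikawa, where the other chromosomes ranged from 0.826 to 0.834, and 0.794 in Hec1A, where they ranged from 0.803 to 0.833. The spread within the chromosome was far larger than this difference, with quartiles of 0.743 and 0.885 in Ishikawa and of 0.724 and 0.866 in Hec1A. The lowest rank was lost in Ishikawa when only its 13252 highest-scoring peaks were kept (0.889, rank 7 from the highest of 23) and when an input fold of 8 was required (0.855, rank 7). In Hec1A it was lost at a local fold of at least 8 (0.893, rank 14).

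HOMER divides the number of distinct tag positions it expects in a peak by the number found, and this clonal fold is high where many tags start at the same bases. It was above 1 in 215 Ishikawa peaks of chromosome 19 (16.9%, 15.0% to 19.1%), beside 25.1% of the whole Ishikawa list, the lowest share of 23 chromosomes. Chromosome 22 was close, with 17.6%, inside that interval. In Hec1A the clonal fold was above 1 in 134 peaks of chromosome 19 (24.9%, 21.4% to 28.7%), beside 28.8% of the whole Hec1A list.

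Overlap between the lines was frequent on this chromosome. A total of 316 Ishikawa peaks shared at least 1 bp with a Hec1A peak, 24.9% of the Ishikawa peaks of the chromosome (22.6% to 27.3%), beside 12.8% of the whole Ishikawa list. The same 316 overlaps involved 58.7% of the Hec1A peaks of the chromosome (54.5% to 62.8%), beside 52.9% of the whole Hec1A list. Every overlap was between 1 Ishikawa peak and 1 Hec1A peak. Chromosome 19 had the highest Ishikawa share of 23 chromosomes, and chromosome 17 followed with 20.3%. At a local fold of at least 8 in both lists it ranked 3 of 23, with 13.7% on chromosome 19 and 15.2% on the highest. In Hec1A its share ranked 4 of 23, and the highest, 62.2%, was that of chromosome 12. That Hec1A rank depended on the setting: it was 1 at a local fold of at least 8 (68.0%) and without peaks of clonal fold above 1 (68.6%), and 7 when 50% of the shorter interval had to be shared (55.6%). The Ishikawa share can be no higher than the number of Hec1A peaks allows, and this chromosome had the most Hec1A peaks per Mb.

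**Figure D1:**
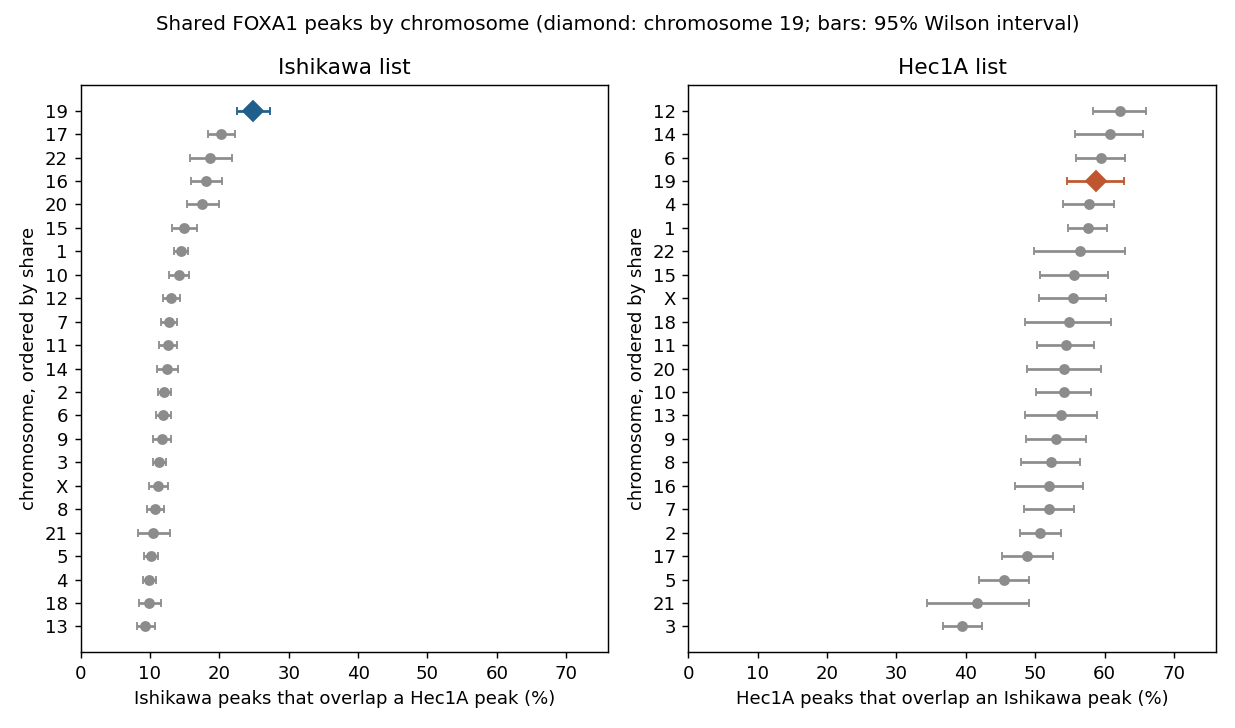
Share of peaks with a partner in the other line on each autosome and chromosome X, with 95% Wilson intervals as bars, for the Ishikawa list (left) and the Hec1A list (right). Chromosome 19 (diamond) stands highest in the Ishikawa list at 24.9% and ranks 4 of 23 in the Hec1A list at 58.7%.

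Stronger peaks were shared more often, and within each list chromosome 19 was compared with the rest at like scores. Each list was split into 4 groups of equal size by its findPeaks score, a tag number capped per base pair. Among Ishikawa peaks of the highest score group, 192 of 366 on chromosome 19 had a partner (52.5%, 47.3% to 57.5%), and 28.8% elsewhere did (28.1% to 29.6%). In the lowest score group the Ishikawa shares were 5.54% on chromosome 19 (3.38% to 8.93%) and 2.35% elsewhere (2.11% to 2.62%). The 2 score groups between gave 23.2% and 9.86% on chromosome 19, and 12.8% and 6.14% elsewhere. The Ishikawa intervals of chromosome 19 and of the rest did not overlap in any score group. The score groups do not adjust for the number of Hec1A peaks available. Chromosome 19 had 538 Hec1A beside 1270 Ishikawa peaks, and the other chromosomes had 12714 beside 53585. The part of this in the Ishikawa shares was not tested. In Hec1A the shares of the highest group, 80.5% on chromosome 19 (72.9% to 86.3%) and 74.0% elsewhere (72.4% to 75.5%), had overlapping intervals, as did those of the lowest group, 19.7% (13.8% to 27.3%) and 21.9% (20.5% to 23.4%). The Hec1A intervals did not overlap in the second highest group, with 76.9% on chromosome 19 (69.0% to 83.2%) and 64.6% elsewhere (63.0% to 66.3%), and overlapped in the one below it, with 57.6% (49.2% to 65.5%) and 50.1% (48.4% to 51.8%). No test was made, since peaks of 1 pool are not replicates.

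**Figure D2:**
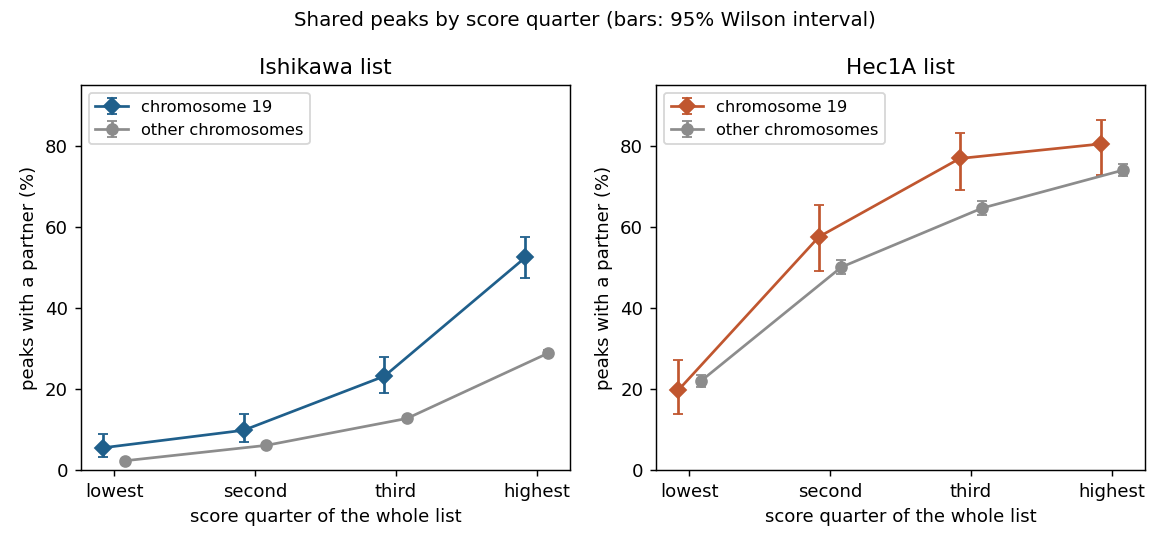
Share of peaks with a partner in the other line in 4 score groups of equal size, cut over the whole Ishikawa list (left) and the whole Hec1A list (right), with 95% Wilson intervals. Chromosome 19 (diamonds) lies above the other chromosomes (circles) in each Ishikawa group, up to 52.5% and 28.8% in the highest, and the Hec1A lines cross at the lowest. The groups do not adjust for the number of Hec1A peaks available.

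The shared sites were placed closely. Their centres lay a median of 14 bp apart (quartiles 4 and 39.3 bp), the same median as on other chromosomes, and 254 of the 316 pairs (80.4%) had centres within 50 bp. Shared Ishikawa peaks had a median signal of 19.7 and a median local fold of 14.2, and unshared ones had 8.63 and 6.87. Shared Hec1A peaks had a median signal of 5.35 and a median local fold of 5.95, and unshared ones had 4.40 and 5.26. A clonal fold above 1 was found in 16 of 316 shared and 199 of 954 unshared Ishikawa peaks (5.06% and 20.9%), and in 26 of 316 shared and 108 of 222 unshared Hec1A peaks (8.23% and 48.6%). Over the whole lists the shares were 25.1% in Ishikawa and 28.8% in Hec1A. Shared peaks held 47.5% of the Ishikawa signal and 61.0% of the Hec1A signal in the peaks of this chromosome. Peaks of other chromosomes were not split into shared and unshared for these values. The share of pairs with centres within 50 bp was not computed there either.

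Signal in the lines was related but loosely. Over the 316 pairs the Spearman rho of the signals was 0.514, and 0.464 over 6696 pairs on other chromosomes. This is a description across sites of the same 2 pools, which share the ease with which reads map, and has no p-value. The ratio of Ishikawa over Hec1A signal had a median of 3.87 (quartiles 2.30 and 5.93), beside 3.51 on other chromosomes. Ishikawa signal was the higher in 301 pairs and Hec1A signal in 15, a count made on this chromosome only. The pools were unlike in enrichment. HOMER recorded an approximate IP efficiency, the percentage of tags in peaks, of 9.66 for Ishikawa and 1.12 for Hec1A. The signal ratios therefore do not measure binding at the sites alone, and the part of enrichment in them was not tested. Ishikawa intervals are 353 bp wide and Hec1A intervals 254 bp, and per base pair the median ratio was 2.79.

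**Figure D3:**
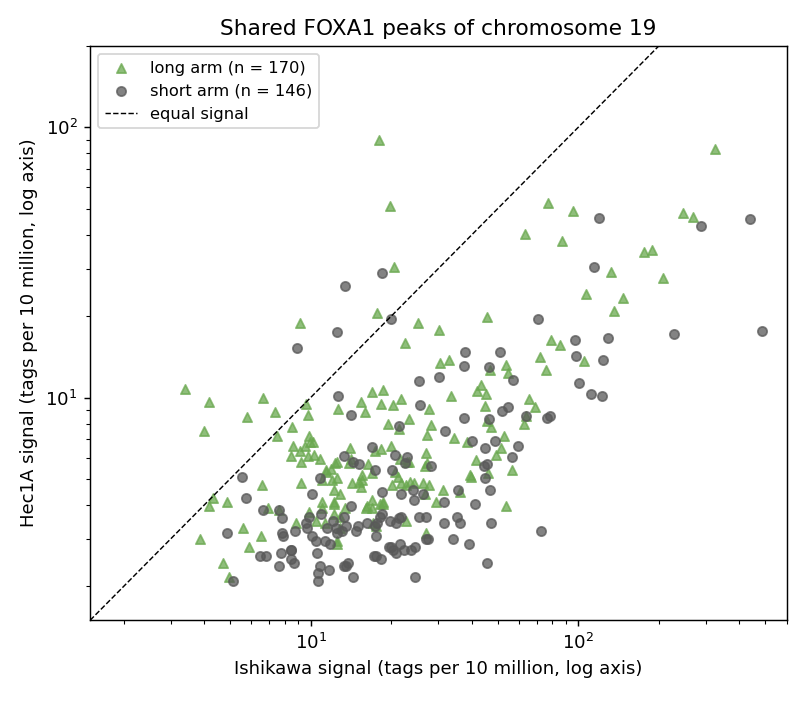
Signal of the 316 shared peaks of chromosome 19 in Ishikawa (x axis) and Hec1A (y axis), in tags per 10000000 on log axes, by chromosome arm. All but 15 pairs lie below the line of equal signal, and long-arm pairs (triangles) tend to lie higher than short-arm pairs (circles).

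The 8 shared sites of lowest mean rank by score were picked for strength, so their high signal is no finding. Nor are their focus ratios independent of that choice. The median focus ratio was 0.889 in chromosome 19 peaks among the highest-scoring Ishikawa peaks, and 0.817 in all Ishikawa peaks of the chromosome. The first by mean rank was at 49078016 to 49078368 on the long arm, with a signal of 325.7 in Ishikawa and 82.9 in Hec1A, local folds of 137.3 and 72.2, and focus ratios of 0.983 and 0.951. The next, at 11669999 to 11670351 on the short arm, had signals of 438.1 in Ishikawa and 45.6 in Hec1A, and its local folds of 292.9 and 74.1 were the highest of the chromosome in each list. The others were at 41224664 to 41225016, 35739460 to 35739812, 3968608 to 3968960, 40168615 to 40168967, 8524703 to 8525055 and 39149261 to 39149613. In these 8 pairs Ishikawa signal was between 119.1 and 438.1 and Hec1A signal between 34.7 and 82.9. All 8 pairs had focus ratios of at least 0.951 in both lines, centres at most 6 bp apart, and clonal folds below 1. None lay in a zinc finger block.

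The balance between the lines varied from site to site. The Ishikawa peak of highest score on the chromosome, at 11455001 to 11455353, had a signal of 486.9 there and 17.6 in its Hec1A partner, a ratio of 27.7. It was followed by 10399826 to 10400178, with 72.5 in Ishikawa and 3.22 in Hec1A, and by 459859 to 460211, with 45.6 and 2.45. These 3 sites all lay on the short arm. At the other end, 32864718 to 32865070 had a signal of 18.0 in Ishikawa and 89.8 in Hec1A, a ratio of 0.200, and was the peak of second highest score of the chromosome in Hec1A. The sites at 51978372 to 51978724 and 39290339 to 39290691 had ratios of 0.315 and 0.386. These 3 sites all lay on the long arm.

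Peaks without a partner included strong sites in Ishikawa. The one of highest score, at 934880 to 935232, had a signal of 323.6 and a fold over input of 313.3, and the nearest Hec1A peak was 9.40 kb away. It belonged to a run of 5 Ishikawa peaks between 920724 and 940913, of which 1 was shared. The next were at 18809655 to 18810007, 8271474 to 8271826, 36089814 to 36090166, 28782198 to 28782550 and 9142756 to 9143108, with signals of 114.8 to 246.3 and folds over input of 29.7 to 255.8. Of the 954 unshared Ishikawa peaks, 83 (8.70%) lay within 5 kb of a Hec1A peak, 178 lay over 100 kb from one, and the median distance was 33.0 kb. Distances were computed on this chromosome only, so these counts are not set against the rest of the list.

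Beside a median signal of 5.35 in shared ones, unshared Hec1A peaks had a median of 4.40, with a few far higher. The 2 of highest score lay beside the centromere, at 27732122 to 27732376 and 27738370 to 27738624, with signals of 450.7 and 218.4. Their local backgrounds of 29.8 and 17.1 tags per 10000000 stood far above the chromosome's Hec1A median of 0.826, and the nearest Ishikawa peak was 473 kb or more away. The local background is the signal divided by the local fold. The first of them had a focus ratio of 0.621, and the second a clonal fold of 1.90. The Hec1A list was not filtered on input, and whether input was high there was not tested. The next 4 were at 46696462 to 46696716, 18111392 to 18111646, 39126740 to 39126994 and 6568123 to 6568377, with signals of at most 31.4. The last 3 of these had an Ishikawa peak 0.357 to 2.69 kb away. Of the 222 unshared Hec1A peaks, 53 (23.9%) lay within 5 kb of an Ishikawa peak and 11 lay over 100 kb from one. These Hec1A distances, too, were computed on this chromosome only.

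Most peaks stood alone. With neighbours joined when their centres were at most 10 kb apart, 763 of 976 Ishikawa runs and 421 of 473 Hec1A runs held 1 peak, and 18 Ishikawa runs and 1 Hec1A run held 4 or more. That Hec1A run, at 18475978 to 18497000, held 4 peaks, all of them shared, inside an Ishikawa run of 5 peaks at 18475886 to 18497048. The Ishikawa signals of this run were 9.60 to 70.7 and the Hec1A signals 3.08 to 19.6. Runs were counted on this chromosome only, so their numbers are not set against the rest of the lists.

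Peak density changed strongly along the chromosome, and in both lines together. Outside the centromere gap, taken as 24 to 28 Mb, 56 windows of 1 Mb held between 2 and 45 Ishikawa peaks (median 23.5) and between 0 and 25 Hec1A peaks (median 9.5). The windows with the most Ishikawa peaks started at 47 Mb with 45 peaks, at 2 Mb with 44 and at 1 Mb with 42. Those with the most Hec1A peaks started at 36 Mb with 25 peaks, at 47 Mb with 23 and at 49 Mb with 22. The window from 36 to 37 Mb was the only one of these with as few Ishikawa as Hec1A peaks, 25 of each, and 14 of its Hec1A peaks had a clonal fold above 1. No window outside the gap lacked an Ishikawa peak, and the windows from 22 to 23 Mb and from 59 Mb, where the chromosome ends, lacked a Hec1A peak. The counts of both lines had a Spearman rho of 0.699 over the 56 windows, 0.735 within the short arm and 0.796 within the long arm. Windows share gene density and the ease of mapping, so this describes the lists and has no p-value.

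The zinc finger blocks were sparse in peaks. They were 6 blocks of whole megabases known to hold the large clusters, at 12 to 13, 20 to 24, 37 to 38, 44 to 45, 53 to 54 and 57 to 59 Mb, and they also contain other genes. In Ishikawa they held 143 peaks, or 14.3 per Mb, and the rest of the chromosome held 1124, or 24.4 per Mb, a ratio of 0.585. In Hec1A they held 47 peaks in 10 Mb and the rest held 489, or 10.6 per Mb, a density ratio of 0.442. With the block at 12 to 13 Mb left out, a choice made after its values were seen, the ratios were 0.477 in Ishikawa and 0.376 in Hec1A. The block at 20 to 24 Mb made up 4 of the 10 Mb and held 29 Ishikawa and 3 Hec1A peaks. Ratios without that block were not computed. The block at 12 to 13 Mb had the most peaks per Mb of the 6, 37 in Ishikawa and 11 in Hec1A, so leaving it out lowers the ratios. Windows outside the blocks could be sparse too, with 4 Ishikawa and 5 Hec1A peaks at 43 to 44 Mb, and 6 and 3 at 31 to 32 Mb.

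The 19p12 block, from 20 to 24 Mb, had the fewest peaks per Mb of the 6 blocks, 7.25 in Ishikawa and 0.75 in Hec1A. Its 4 windows held 9, 8, 2 and 10 Ishikawa peaks and 1, 1, 0 and 1 Hec1A peaks. Ishikawa peaks in it had a median signal of 5.03 and a highest signal of 21.0, beside a median of 10.4 in the rest of the chromosome. Their local background was also low, with a median of 0.810 tags per 10000000 in the block and 1.26 in the rest, and 13 of the 29 had a clonal fold above 1 (44.8%, 28.4% to 62.5%), beside 25.1% of the whole Ishikawa list. The median input tag count per peak was 3 in the block and 5 in the rest. How well reads map to these repeated genes was not tested. Of the 29 Ishikawa peaks 1 was shared (3.45%, 0.611% to 17.2%), beside 12.8% of the whole Ishikawa list, which lies inside that interval.

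The other blocks differed among themselves. The block at 12 to 13 Mb held 37 Ishikawa and 11 Hec1A peaks, above the median window of the rest of the chromosome with 25 and 10.5. Of its 11 Hec1A peaks 10 were shared (90.9%, 62.3% to 98.4%), beside 52.9% of the whole Hec1A list. The blocks at 37 to 38, 44 to 45 and 53 to 54 Mb held 16, 15 and 17 Ishikawa peaks, and 5, 10 and 8 Hec1A peaks. The block at 57 to 59 Mb held 29 Ishikawa and 10 Hec1A peaks over its 2 Mb. Peaks inside the 6 blocks were shared in 19.6% of cases in Ishikawa (13.9% to 26.8%) and 59.6% in Hec1A (45.3% to 72.4%), and peaks of the rest in 25.6% (23.2% to 28.3%) and 58.9% (54.5% to 63.2%). The intervals overlapped in both lists.

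Single peaks in the blocks reached moderate strength. The strongest in Ishikawa was at 12901967 to 12902319, with a signal of 111.5 and a fold over input of 53.9. The next was at 58609624 to 58609976, with a signal of 99.9, a local fold of 89.7 and the nearest Hec1A peak 150.6 kb away. Both 12034382 to 12034734 and 37663525 to 37663877 were strong in Ishikawa, with signals of 97.8 and 79.3, and their Hec1A partners, with 14.2 and 16.4, were the second strongest and the strongest Hec1A peaks in the blocks. The other Hec1A peaks of highest score in the blocks were at 12894890 to 12895144 and 57922429 to 57922683, with local folds of 12.6 and 11.4, and both were shared.

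**Figure D4:**
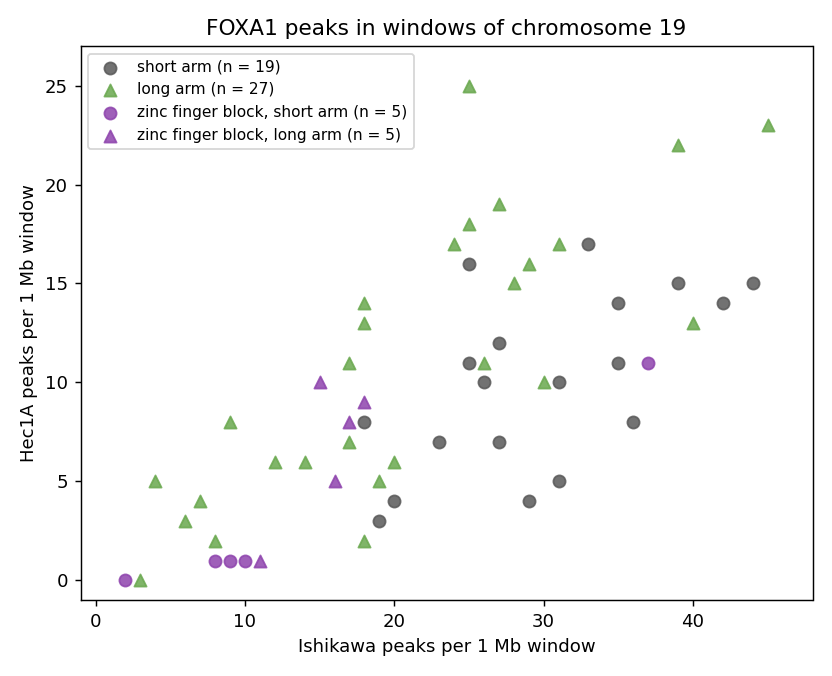
Ishikawa (x axis) and Hec1A (y axis) peaks in 56 windows of 1 Mb of chromosome 19 outside the centromere gap. Most zinc finger windows (purple) lie toward the lower left, but not the window at 12 to 13 Mb with 37 Ishikawa and 11 Hec1A peaks. The window at 44 to 45 Mb, with 15 and 10, lies near the Hec1A median of 9.5. Long-arm windows (triangles) often lie higher than short-arm windows (circles) of like Ishikawa count. There are exceptions, such as 18 Ishikawa and 2 Hec1A peaks at 28 to 29 Mb.

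The arms, a split chosen after the values were seen, were close in local background and clonality in Ishikawa and apart in Hec1A. Ishikawa had 636 peaks on the long arm, or 19.9 per Mb, and 631 on the short arm, or 26.3 per Mb. Hec1A had 331 on the long arm, or 10.3 per Mb, and 205 on the short arm, or 8.54 per Mb. The ratio of long-arm over short-arm density was 0.756 in Ishikawa (0.677 to 0.844) and 1.21 in Hec1A (1.02 to 1.44). The Hec1A direction turned without peaks of clonal fold above 1, which left 214 peaks on the long arm and 189 on the short arm (0.849, 0.699 to 1.03), and at a local fold of at least 8, which left 67 and 59 (0.852, 0.601 to 1.21). Ishikawa local background had medians of 1.22 tags per 10000000 on the long arm (1.17 to 1.28, 95% interval from order statistics) and 1.24 on the short arm (1.20 to 1.28), a ratio of 0.989. Hec1A signal had a median of 5.31 on the long arm (quartiles 4.09 and 7.69) and 3.57 on the short arm (2.80 and 6.15). The median local fold of Hec1A peaks was 5.58 on the long arm and 5.81 on the short arm. Local background is signal divided by local fold, which was at least 4 in every listed peak. Signal and local background are therefore tied. The higher Hec1A signal of the long arm went with a higher local background, with a median of 0.948 tags per 10000000 on the long arm (0.916 to 0.982) and 0.633 on the short arm (0.605 to 0.663), a ratio of 1.5. Over whole chromosomes from 1 to X, Hec1A medians ran from 0.684 on X to 1.03 on chromosome 3, so the short arm lay below that range and the long arm near its upper end.

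Clonality moved with the arms in Hec1A as well. A clonal fold above 1 was found in 17.5% of Ishikawa peaks on the long arm (14.7% to 20.6%) and 16.5% on the short arm (13.8% to 19.6%), beside 25.1% of the whole Ishikawa list. In Hec1A it was found in 117 of 331 peaks of the long arm (35.3%, 30.4% to 40.6%) and in 16 of 205 of the short arm (7.80%, 4.86% to 12.3%). The share over the whole Hec1A list, 28.8%, lay between the arms. Of Hec1A peaks 51.4% had a partner on the long arm (46.0% to 56.7%) and 71.2% on the short arm (64.7% to 77.0%), and the intervals did not overlap. Over the whole Hec1A list 52.9% had a partner, a share inside the long-arm interval and below the short-arm interval. Without the peaks of clonal fold above 1, the Hec1A shares were 69.2% on the long arm (62.7% to 75%) and 75.1% on the short arm (68.5% to 80.8%), with overlapping intervals. The ratio of local backgrounds in Hec1A was 1.52 without those peaks and 1.57 among shared peaks. In the shared pairs the median ratio of Ishikawa over Hec1A signal was 3.01 on the long arm (170 pairs) and 4.94 on the short arm (146 pairs). Copy number was not measured, and its part in these values was not tested.

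**Figure D5:**
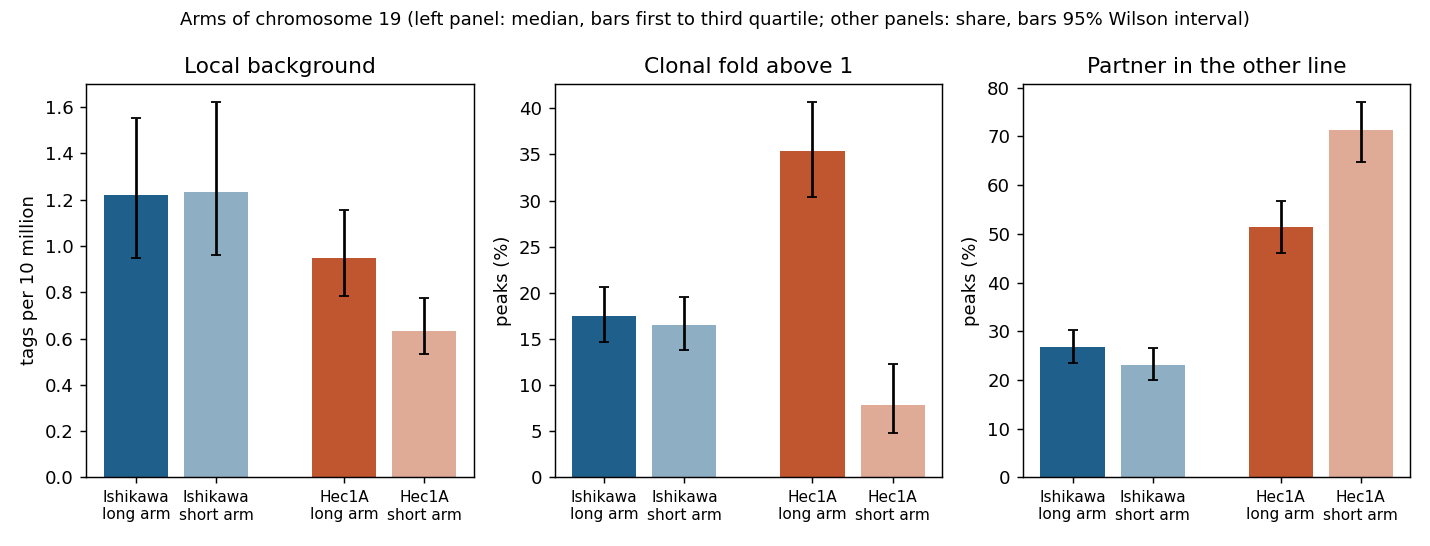
Local background of peaks (left, median with quartiles), share of peaks with a clonal fold above 1 (middle) and share with a partner in the other line (right, both with 95% Wilson intervals), on the long and short arms of chromosome 19. Ishikawa arms are close in each panel, while Hec1A has a background of 0.948 on the long arm and 0.633 on the short arm. Hec1A partner shares are 51.4% on the long arm and 71.2% on the short arm, beside 52.9% of the whole Hec1A list.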

How the data were processed

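The deposited files are 1 peak list per line. The submitters' processing notes name HOMER 4.7.2, SAMtools 1.3.1 and Bowtie 1.1.2 with the hg19 build. HOMER findPeaks was run by the authors in factor mode, per the file headers, on pools of 343739762 Ishikawa and 143055568 Hec1A tags, at a false discovery rate of 0.001, a local fold of 4 and a clonal fold of at most 2. A fold over input of 4 was required in Ishikawa alone. Per the labels, both pools mix TruSeq and ThruPLEX libraries. The deposited signal is tags per 10000000, the deposited focus ratio a fraction, the deposited score a capped tag number, and the deposited folds ratios. The deposited p-value columns were not used.

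Computed here were overlaps (at least 1 bp), medians, counts per window, local background and Wilson intervals, with Python 3.11.15, pandas 2.3.3 and SciPy 1.17.1. The overlap code was tested on simulated lists. Named peaks are the 8 shared sites of best mean score rank, the 6 unshared peaks and the 4 peaks in zinc finger blocks of highest score in each list, and the 3 highest and 3 lowest signal ratios. The members, blocks and lists were chosen with earlier results of these data known. Values per library are not analysed here.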

Additional observations from a re-analysis of the deposited data

Results flagged for a closer look

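The density of peaks differed between the arms in opposite directions in the 2 lists. The long arm had 0.756 times the peaks per Mb of the short arm in Ishikawa and 1.21 times in Hec1A, and each 95% interval left out 1. The difference between the lines was not tested, since each has 1 pooled list, and the Hec1A direction turned under the stricter limits on clonal fold and local fold.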

How the results depend on the processing

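Over 79 alternatives, 36 stayed within the interval of the value reported, or within 1.5 times for a count, 41 did not, and 2 turned a direction. These 2 were the Hec1A density of the long arm over the short arm, 0.852 at a local fold of at least 8 and 0.849 without peaks of clonal fold above 1. The Ishikawa ratio of local backgrounds, 0.989, has an interval that includes 1 and lay on either side of it, between 0.971 and 1.01. At a local fold of at least 8 in both lists, 636 Ishikawa and 128 Hec1A peaks were left on chromosome 19, 2.89% and 3.72% of their lists. Of these 13.7% and 68.0% had a partner, with median signals of 17.0 and 11.4 and focus ratios of 0.866 and 0.893. Without peaks of clonal fold above 1 the chromosome held 2.57% of the Ishikawa list with a median signal of 11.3, and 68.6% of its Hec1A peaks had a partner, with a focus ratio of 0.780. With the Ishikawa list at the length of the Hec1A list, 359 Ishikawa peaks (2.71%) were left, with a median signal of 27.1, a focus ratio of 0.889 and a zinc finger density ratio of 0.359, and partner shares were 52.9% in Ishikawa and 35.3% in Hec1A. With an input fold of 8 required in Ishikawa, 643 Ishikawa peaks were left and the partner shares were 35.3% in Ishikawa and 42.2% in Hec1A. With centres within 100 bp the Hec1A share was 53.7%. With only the blocks at 20 to 24, 53 to 54 and 57 to 59 Mb, the density ratio of zinc finger blocks was 0.440 in Ishikawa and 0.285 in Hec1A. That choice also leaves out the block at 12 to 13 Mb. The ratio was 0.701 in Ishikawa and 0.648 in Hec1A with blocks widened by 1 Mb, and 0.477 in Ishikawa without the block at 12 to 13 Mb alone. Lower peak numbers follow from the thresholds. For the other values the cause was not tested. Of the moved values, 11 are medians of local fold, clonal fold or local background. The alternatives on the arms, the one without the block at 12 to 13 Mb, and partner shares at the stricter input fold were added with the values in view. The rank correlation over windows ranged from 0.557 with windows of 100 kb to 0.799 without peaks of clonal fold above 1. No paired analysis was possible because each line has a single list from pooled libraries, and for that reason no library could be left out either.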
